A study of Mus musculus with 16 samples.

Results

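Chemokines are small secreted proteins that direct the movement of leukocytes, and they act through receptors that span the membrane and couple to inhibitory G proteins. The genes described here are all those whose array symbol names a CC or CXC chemokine or receptor, together with Cx3cl1, Cx3cr1, Xcl1, Xcr1, Pf4 and Ppbp. They are 53 of the 17944 named genes on the array and are measured by 68 of its 25697 probes. Of the 53, 36 are ligands and 17 are receptors.

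The study measured gene expression in whole hindlimb (hamstring) muscle of female mice on an Illumina BeadChip, which reads labelled cRNA on beads that carry gene probes. Mice had either a spinal cord injury (SCI) between vertebrae T12 and T13 or sham surgery, and the muscle was injected either with saline or with cardiotoxin (CDTX), a venom toxin that kills muscle fibres. The 4 groups, named Sham+Saline, Sham+CDTX, SCI+Saline and SCI+CDTX, have 4 arrays each, and all muscle was taken 2 days after surgery. SCI+CDTX is, per the series design, the one condition in which neurogenic heterotopic ossification, bone within muscle after nervous system injury, develops. Array 2 of SCI+CDTX was left out by the submitters, so that group has 3 arrays here (1, 3 and 4). The labels give neither strain nor age, and they do not say whether an array stands for 1 animal or for a pool, so p-values measure the spread between arrays.

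In injured muscle, ligands of CCR2 draw in monocytes, ligands of CXCR2 draw in neutrophils, and fractalkine and CXCL12 act on resident and stromal cells. CCL19, CCL21 and CXCL13 are made in lymph nodes, where they place T cells, dendritic cells and B cells through CCR7 and CXCR5. Many inflammatory chemokine genes are induced by NF-kappaB, a transcription factor activated by interleukin 1 and tumour necrosis factor.

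Promoters were set beside the expression data, and those printed here match the NF-kappaB consensus. They belong to Cxcl1, Cxcl2 and Cxcl10, whose levels are described below, and to Cxcl3, all on mouse chromosome 5. Other chemokine genes lie on that chromosome too. Of these, Cxcl9, Cxcl15 and Ppbp had a promoter without such a match. RefSeq promoters (GRCm38.p6, the 250 bases before each start site) were matched for 38 of the 53 genes, with 42 promoters. The lines give the strand of the gene 5′ to 3′, with matches to the NF-kappaB consensus, searched on both strands, in capitals. They come from chr5:90890995-90891244 (plus strand, Cxcl1), chr5:90903649-90903898 (plus strand, Cxcl2), chr5:90785851-90786100 (plus strand, Cxcl3) and chr5:92348890-92349139 (minus strand, Cxcl10).
Cxcl1 promoter: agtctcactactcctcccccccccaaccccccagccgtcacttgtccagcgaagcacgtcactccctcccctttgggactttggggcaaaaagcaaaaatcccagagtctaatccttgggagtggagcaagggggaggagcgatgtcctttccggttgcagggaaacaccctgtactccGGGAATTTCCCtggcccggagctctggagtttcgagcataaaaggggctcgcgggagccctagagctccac
Cxcl2 promoter: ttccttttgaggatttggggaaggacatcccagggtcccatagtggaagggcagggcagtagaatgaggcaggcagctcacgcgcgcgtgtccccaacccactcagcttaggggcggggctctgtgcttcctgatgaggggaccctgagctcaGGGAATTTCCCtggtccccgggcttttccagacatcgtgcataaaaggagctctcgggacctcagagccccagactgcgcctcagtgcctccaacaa
Cxcl3 promoter: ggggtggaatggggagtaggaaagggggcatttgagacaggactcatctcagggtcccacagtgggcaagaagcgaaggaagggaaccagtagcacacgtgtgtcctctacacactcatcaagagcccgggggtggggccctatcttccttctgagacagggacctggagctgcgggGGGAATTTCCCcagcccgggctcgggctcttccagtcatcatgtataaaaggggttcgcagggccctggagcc
Cxcl10 promoter: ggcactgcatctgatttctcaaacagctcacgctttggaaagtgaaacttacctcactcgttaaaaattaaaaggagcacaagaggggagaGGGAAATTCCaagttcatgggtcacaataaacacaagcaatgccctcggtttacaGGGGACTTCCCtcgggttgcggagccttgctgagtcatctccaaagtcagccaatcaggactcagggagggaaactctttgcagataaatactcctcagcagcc
The run GGGAATTTCC stands in the promoters of Cxcl1, Cxcl2 and Cxcl3, starting 71, 97 and 73 bases before the start site. Cxcl10 holds GGGAAATTCC from 159 bases and GGGGACTTCC from 104 bases before its start. The NF-kappaB consensus was matched in 10 of the 42 promoters (23.8%), against 2382 of 32851 RefSeq promoters of that length (7.25%). These were the promoters of Ccl1, Ccl9, Ccl20, Ccr1, Ccr3, Ccr6, Cxcl1, Cxcl2, Cxcl3 and Cxcl10. Of these genes Ccl1, Ccl20, Ccr1 and Cxcl3 were detected on no array. The TATAAA motif was found in 11 of the 42 (26.2% against 12.4% of all), and the AP-1 motif TGANTCA in 6 (14.3% against 6.75%). The STAT motif TTCNNNGAA was matched in 3 (7.14% against 7.02%). Motifs were searched on both strands, and they may overlap. A match describes these letters and is not a measured binding site.

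Detection separated CDTX from saline muscle before any fold change was taken. A probe counted as detected on an array at a detection p-value under 0.05, and a gene was kept for testing when a probe of it was detected on at least 3 of the 15 arrays. By that filter 32 genes were kept, 25 of 36 ligands and 7 of 17 receptors, and 15 genes were detected on all 15 arrays. Member genes detected per array numbered 31, 31 and 29 in SCI+CDTX, 29, 28, 30 and 30 in Sham+CDTX, 25, 25, 21 and 26 in SCI+Saline, and 20, 20, 19 and 21 in Sham+Saline. Thus every CDTX array detected more chemokine and receptor genes than any saline array. Genes detected on every array of a group numbered 28, 26, 19 and 15 in the same order of groups. Over all 25697 probes the arrays differed the same way, with 13122 to 13595 detected in SCI+CDTX, 13221 to 13569 in Sham+CDTX, 11555 to 12787 in SCI+Saline and 11114 to 11850 in Sham+Saline. Sham+Saline arrays were also dimmer, at a mean raw intensity of 230.5 to 277 against 319.9 or more on the other arrays, and the part of this in the results was not tested.

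The 21 genes that were not kept include receptors of ligands that were. Ccr1 and Ccr2, the receptors of CCL6 and CCL9 and of CCL2 and CCL7, were detected on 0 of 15 arrays, as were Ccr4, Ccr8 and Ccr9. Ccr7, the receptor of CCL19 and CCL21, was detected on 2 arrays, and Ackr3, Ccr10, Cxcr6 and Xcr1 on 1 each. The probes of the CXCR2 gene, which the array lists as Il8rb and which the symbol rule leaves out, were detected on at most 1 of all 16 arrays. Among ligands, Ccl1, Ccl20, Ccl26, Ccl28, Cxcl3, Cxcl11 and Cxcl17 were detected on no array, Ccl17, Ccl22 and Xcl1 on 1, and Cxcl15 on 2. A gene that is not detected here has only an upper bound on its level, set by these probes.

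Across the 32 kept genes, CDTX went with higher levels after both kinds of surgery. Levels are log2 normalized intensities, differences are log2 fold changes of the brightest kept probe of a gene, and a gene was called where limma's p, adjusted by Benjamini-Hochberg over all kept probes, was under 0.05. After SCI, 19 genes were higher and 3 lower with CDTX, where 44.3% of the 10851 genes tested were called (22.2% higher and 22.2% lower). After sham surgery, 18 were higher and 5 lower, where 50.7% of all genes were called (23.9% higher and 26.8% lower). The members' median log2 fold change was 0.89 and 0.65, against -0.04 and -0.05 over all genes. In SCI+CDTX against Sham+Saline, 21 genes were higher and 2 lower, where 48% of genes were called (24% in each direction), with a median of 1.16 against -0.03. The kept genes include those that passed the filter only through a group where they were high, so these counts and medians describe the set and support nothing by themselves. The 3 comparisons share arrays, so they are not independent of each other.

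Surgery went with fewer differences, among the members as among all genes. In SCI+CDTX against Sham+CDTX, 8 genes were higher and 3 lower, where 32.4% of all genes were called (16.5% higher and 15.9% lower). In SCI+Saline against Sham+Saline, 8 were higher and 2 lower, where 30.5% were called (14.7% higher and 15.9% lower). The members' medians were 0.11 and 0.37, against 0.02 and -0.02 over all genes. All SCI arrays were on 1 slide and all sham arrays on the other, so for these comparisons surgery and slide cannot be told apart, whereas the CDTX comparisons each lie within a slide. The groups did not overlap for 20 of the 32 genes in SCI+CDTX against SCI+Saline and for 22 in Sham+CDTX against Sham+Saline, where 47.1% and 47.3% of all genes did not. The same count was 18 in SCI+CDTX against Sham+CDTX (45.3% of all genes), 5 in SCI+Saline against Sham+Saline (24.5%) and 24 in SCI+CDTX against Sham+Saline (50.3%).

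**Figure D1:**
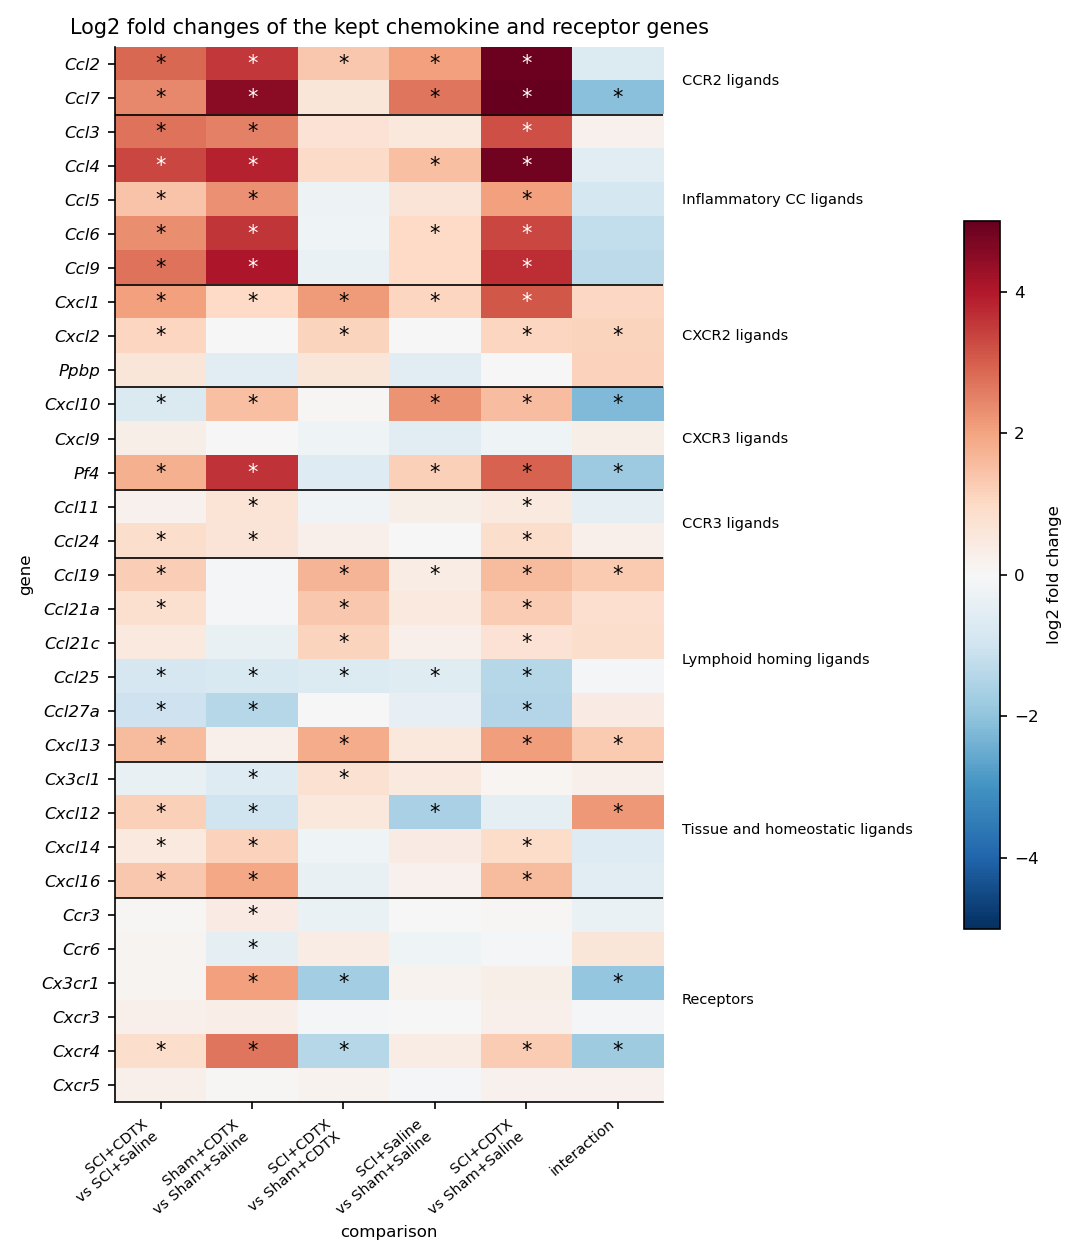
Log2 fold changes of 31 of the 32 kept chemokine and receptor genes (rows, grouped by role) in 5 comparisons and the interaction, which is the CDTX effect after SCI minus that after sham surgery (columns). Red is higher and blue lower in the first-named group, and asterisks mark adjusted p under 0.05. The CCR2 ligands and the other inflammatory CC ligands are red in both CDTX columns, with up to 5.09 for Ccl7 in SCI+CDTX against Sham+Saline, and Ccl25 is blue in all 5 comparisons.

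The Sham+CDTX arrays stood apart in how probes of 1 gene compare, which bears on all comparisons with that group and on the interaction. Over 2838 genes that are not members and have more than 1 kept probe, a score of how the brightest probes of a gene differ (the first principal component, 33.1% of the variance) was 0.35 to 0.39 on the Sham+CDTX arrays and -0.27 to -0.07 on the 11 others used. The left-out SCI+CDTX array was at 0.28, so the fit with this probe difference score as a covariate takes in all 16 arrays. Among the arrays used, the score nearly coincides with the Sham+CDTX group, so its slope rests largely on the left-out array. Differences from Sham+CDTX and the interaction are therefore less precise in that fit. Whether a call that ended there did so for lack of precision or because of the score was not tested. That fit kept 20 of 22 member calls of CDTX after SCI, 10 of 23 of CDTX after sham surgery, 2 of 11 in SCI+CDTX against Sham+CDTX and 1 of 9 interactions. With all 16 arrays and no score, 22, 23, 10 and 8 of these calls were kept. In SCI+CDTX against Sham+CDTX the calls kept with the score were Ccl19 at 1.10 (adjusted p = 0.0108) and Cxcl13 at 2.53 (adjusted p = 0.00303). Cxcl1 was then at 1.16 (adjusted p = 0.479), Ccl2 at 1.20 (adjusted p = 0.585), Ccl21a at 1.11 (adjusted p = 0.2) and Cxcl2 at 0.35 (adjusted p = 0.677). The calls of CDTX after sham surgery that ended with the score were those of Ccl6, Ccl9, Ccl11, Ccl24, Ccl27a, Ccr3, Ccr6, Cx3cl1, Cxcl1, Cxcl12, Cxcl14, Cxcr4 and Pf4. Of those it kept there, Ccl3 was at 4.45, Ccl4 at 5.68, Ccl7 at 3.62, Cxcl16 at 3.06 and Cx3cr1 at 1.45, each more than 1.5 times from its fold without the score. The left-out array lay outside the range of the other 3 SCI+CDTX arrays for 28 of the 32 genes, below it for 19 and above it for 9.

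Both kept ligands of CCR2, which recruit monocytes, were higher with CDTX after either surgery and in saline muscle after SCI. Ccl2 (chromosome 11) read 8.69, 9.52 and 9.55 in SCI+CDTX, 8.30, 7.31, 7.87 and 8.05 in Sham+CDTX, 6.0, 7.32, 4.54 and 7.65 in SCI+Saline and 4.64, 4.19, 4.22 and 4.29 in Sham+Saline. All SCI+CDTX arrays lay above all other arrays, and no Sham+Saline array detected the probe. The log2 fold change with CDTX was 2.87 (SE 0.49, adjusted p = 0.000131) after SCI and 3.55 (SE 0.45, adjusted p = 3.43e-06) after sham surgery, the latter at least 8.6-fold since Sham+Saline gives only a bound. SCI+CDTX stood 1.37 (SE 0.49, adjusted p = 0.0412) above Sham+CDTX and at least 22.2-fold above Sham+Saline. SCI+Saline stood at least 3.02-fold above Sham+Saline (adjusted p = 0.00209), although its array 3 lay among the Sham+Saline values. The call against Sham+CDTX was lost when any 1 of 6 arrays was left out (SCI+CDTX arrays 3 and 4, Sham+CDTX arrays 2 to 4, Sham+Saline array 2), with differences of 1.18 to 1.66 over all 15 omissions, and with median scaling (1.24, adjusted p = 0.0548). Without SCI+Saline 3 the Ccl2 difference with CDTX after SCI was 2.24 and that of SCI in saline muscle 2.66, both still called.

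Ccl7, a neighbour of Ccl2 in the chromosome 11 cluster and a ligand of the same receptor, read 10.48, 10.98 and 11.23 in SCI+CDTX, 10.49, 9.81, 10.40 and 10.54 in Sham+CDTX, 8.16, 9.68, 6.52 and 9.59 in SCI+Saline and 6.50, 4.94, 6.32 and 5.46 in Sham+Saline. Both CDTX groups lay above both saline groups, and the CDTX groups overlapped each other. CDTX raised it by 2.41 (SE 0.54, adjusted p = 0.00139) after SCI and by 4.50 (SE 0.50, adjusted p = 7.03e-07) after sham surgery on the log2 scale. In saline muscle it was 2.68 (SE 0.50, adjusted p = 0.000487) higher after SCI, and SCI+CDTX differed from Sham+CDTX by 0.59 (SE 0.54, adjusted p = 0.473), which was not called. The interaction was -2.10 (SE 0.73, adjusted p = 0.0452), and 11 of the 15 omissions of 1 array ended that call (range -2.73 to -1.70). Without SCI+Saline 3 the Ccl7 difference with CDTX after SCI was 1.75 and that of SCI in saline muscle 3.32, both still called, and the interaction was -2.73.

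The 5 other kept inflammatory CC ligands (Ccl3, Ccl4, Ccl5, Ccl6 and Ccl9), which attract monocytes and other leukocytes, were all higher with CDTX after either surgery, with a list median of 2.71 after SCI and 3.57 after sham surgery. Ccl3 read 7.27, 7.95 and 7.54 in SCI+CDTX, 7.21, 6.43, 7.16 and 6.65 in Sham+CDTX, 4.35, 5.13, 4.26 and 5.74 in SCI+Saline and 4.73, 4.25, 4.21 and 4.23 in Sham+Saline, where no array detected it. It was 2.72 (SE 0.29, adjusted p = 1.95e-06) higher with CDTX after SCI and at least 4.24-fold higher after sham surgery (adjusted p = 5.48e-07). Ccl4 read 8.69, 9.88 and 9.80 in SCI+CDTX, 8.64, 8.30, 8.66 and 8.34 in Sham+CDTX, 5.46, 7.19, 4.33 and 7.55 in SCI+Saline and 4.67, 4.58, 4.40 and 4.86 in Sham+Saline. Its differences with CDTX were 3.32 (SE 0.51, adjusted p = 5.28e-05) after SCI and 3.86 (SE 0.47, adjusted p = 2.37e-06) after sham surgery. A dimmer Ccl4 probe gave 1.40 and 2.20, both called. Without SCI+Saline 3 the difference after SCI was 2.70, still called. In saline muscle Ccl4 was 1.5 (SE 0.47, adjusted p = 0.0223) higher after SCI, a call that the dimmer probe did not share and that ended without SCI+Saline 2, SCI+Saline 4 or Sham+Saline 3 (1.03 to 2.11 over all omissions).

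Ccl9, a CCR1 ligand found in rodents, was at 10.85, 11.60 and 11.57 in SCI+CDTX, 11.71, 11.47, 11.71 and 11.79 in Sham+CDTX, 8.36, 9.33, 6.89 and 9.94 in SCI+Saline and 7.67, 7.22, 7.57 and 8.13 in Sham+Saline. CDTX raised it by 2.71 (SE 0.45, adjusted p = 0.000114) after SCI and by 4.02 (SE 0.42, adjusted p = 3.54e-07) after sham surgery. Ccl6, the other rodent CCR1 ligand, read 7.92, 9.04 and 8.97 in SCI+CDTX, 8.77, 8.59, 9.03 and 9.10 in Sham+CDTX, 5.61, 6.86, 5.31 and 7.46 in SCI+Saline and 5.36, 4.73, 5.19 and 5.91 in Sham+Saline. It rose by 2.33 (SE 0.40, adjusted p = 0.000153) and 3.57 (SE 0.37, adjusted p = 3.61e-07) with CDTX, and in saline muscle it was 1.01 (SE 0.37, adjusted p = 0.0478) higher after SCI, a call that held in only 4 of the 15 omissions. With the probe difference score the differences after sham surgery were 2.62 (adjusted p = 0.069) for Ccl9 and 2.10 (adjusted p = 0.104) for Ccl6, neither called, and without SCI+Saline 3 Ccl9 was at 2.12 after SCI. Ccl5, also a T cell chemokine, rose by 1.42 (SE 0.30, adjusted p = 0.000806) after SCI and 2.29 (SE 0.27, adjusted p = 1.68e-06) after sham surgery. None of the 5 was called between SCI+CDTX and Sham+CDTX, where the differences ran from -0.33 for Ccl9 to 0.97 for Ccl4.

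The monocyte and macrophage markers moved with the CCR2 ligands and these 5 genes. All 9 kept marker genes were higher with CDTX after either surgery. Of all genes, 22.2% were called higher with CDTX after SCI and 23.9% after sham surgery. The mean log2 level of these markers was 9.06 to 9.69 in SCI+CDTX, 9.37 to 9.57 in Sham+CDTX, 6.16 to 7.82 in SCI+Saline and 6.09 to 6.75 in Sham+Saline. SCI+Saline 3, the lowest array of its group for Ccl2, Ccl7, Ccl4, Ccl6 and Ccl9, also had the lowest marker mean of its group, 6.16. More cells of a type and more RNA per cell cannot be told apart in whole muscle, and the part of cell numbers in these results was not tested.

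**Figure D2:**
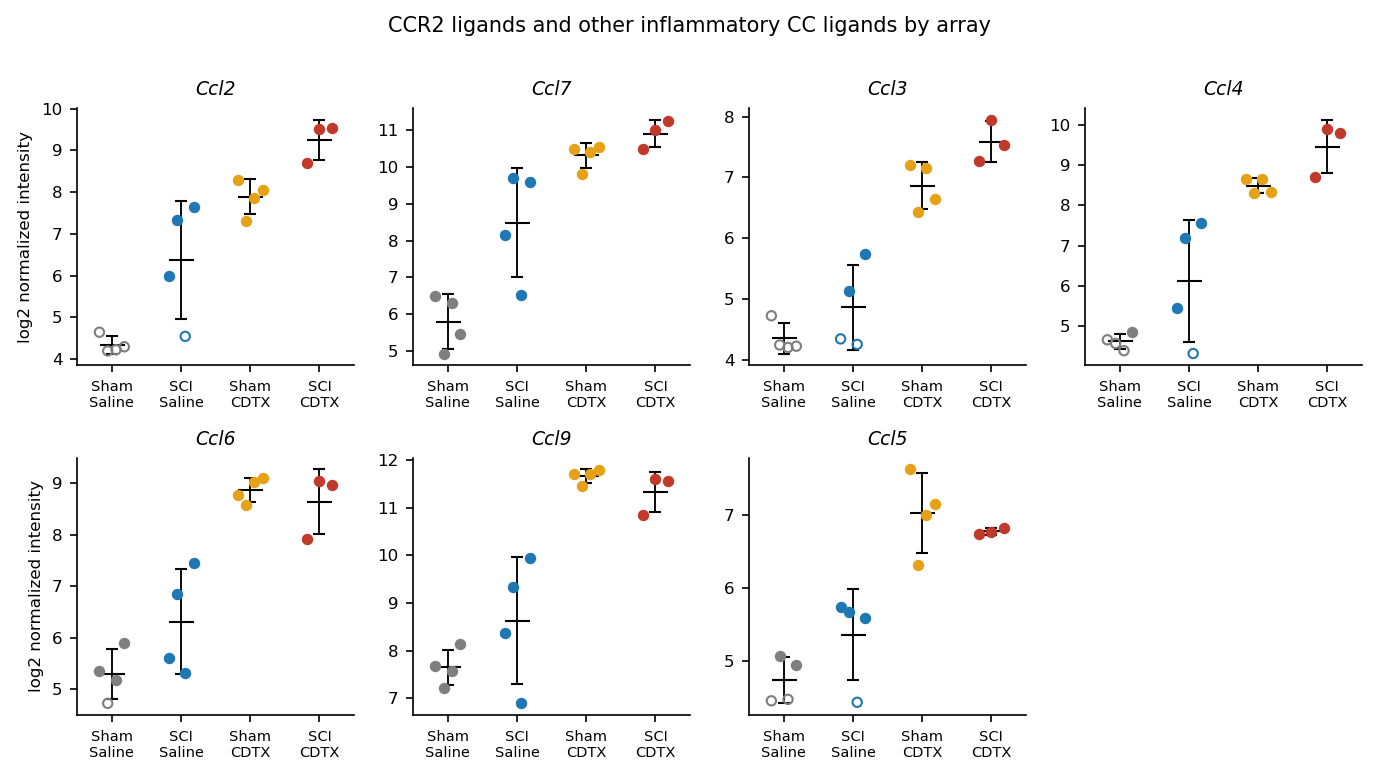
Log2 normalized intensity of the CCR2 ligands Ccl2 and Ccl7 and of 5 other inflammatory CC ligands on each array (points) in the 4 groups, with the group mean and SD (bars); open points are arrays on which the probe was not detected, and each panel has its own axis. The means of both CDTX groups lie above those of both saline groups in every panel, and among these genes SCI+Saline spreads widest for Ccl4, from 4.33 to 7.55.

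Of the 3 kept ligands of CXCR2, which attract neutrophils, Cxcl1 and Cxcl2 were higher in SCI+CDTX than in each other group, and Ppbp was called in no comparison. With the probe difference score neither stayed called against Sham+CDTX. Cxcl1 (chromosome 5) read 7.04, 8.57 and 8.02 in SCI+CDTX, 5.61, 5.71, 5.87 and 5.87 in Sham+CDTX, 5.55, 6.53, 4.76 and 6.47 in SCI+Saline and 4.58, 4.52, 4.94 and 4.99 in Sham+Saline. Every SCI+CDTX array lay above every other array, and SCI+CDTX array 1 was the lowest of its group. SCI+CDTX was 2.05 (SE 0.35, adjusted p = 0.000147) above SCI+Saline, 2.11 (SE 0.35, adjusted p = 0.00018) above Sham+CDTX and 3.12 (SE 0.35, adjusted p = 9.5e-07) above Sham+Saline. CDTX after sham surgery and SCI in saline muscle gave 1.01 (SE 0.33, adjusted p = 0.0154), a call that ended with the score, and 1.07 (SE 0.33, adjusted p = 0.0182). The call in saline muscle ended without SCI+Saline 2 or SCI+Saline 4 (0.85 to 1.43 over all omissions).

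Cxcl2, a second CXCR2 ligand with the same GGGAATTTCC run in its promoter, read 5.20, 5.73 and 5.52 in SCI+CDTX, 4.53, 4.31, 4.28 and 4.35 in Sham+CDTX, 4.23, 4.56, 4.32 and 4.48 in SCI+Saline and 4.84, 4.22, 4.26 and 4.30 in Sham+Saline. The probe was detected on all 3 SCI+CDTX arrays and on 1 of the other 12, Sham+Saline 1. SCI+CDTX was at least 1.73-fold above SCI+Saline (adjusted p = 6.33e-05) and at least 1.95-fold above Sham+CDTX (adjusted p = 8.25e-05). The interaction was 1.13 (SE 0.23, adjusted p = 0.00178). Cxcl3, whose promoter holds the same run, was not detected. Ppbp, the platelet-derived CXCR2 ligand, was highest on Sham+Saline 4, at 7.02 against 4.44 to 5.38 on the other Sham+Saline arrays, and the platelet markers (4 kept) and neutrophil markers (8 kept) were highest on that array too, at means of 5.48 and 9.34. Of the 8 kept neutrophil markers, 2 were called higher in SCI+CDTX than in SCI+Saline, where 22.2% of all genes were. Against Sham+CDTX, 1 was called higher in SCI+CDTX, where 16.5% of all genes were. The mean of these markers was 7.40 to 7.93 in SCI+CDTX, 5.93 to 6.40 in Sham+CDTX, 5.87 to 9.17 in SCI+Saline and 4.64 to 9.34 in Sham+Saline. Their part in the Cxcl1 and Cxcl2 results was not tested.

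Of 6 kept lymphoid homing ligands, Ccl19, Ccl21a and Cxcl13 were higher in SCI+CDTX than in each other group, Ccl25 was lower than in each, and Ccl21c and Ccl27a were neither. Ccl19 (chromosome 4), a CCR7 ligand, read 6.43, 6.51 and 6.42 in SCI+CDTX, 4.84, 4.62, 4.81 and 4.74 in Sham+CDTX, 5.04, 5.22, 5.35 and 5.35 in SCI+Saline and 4.96, 5.01, 4.66 and 4.81 in Sham+Saline. The SCI+CDTX arrays lay close together and above all others. SCI+CDTX was 1.21 (SE 0.14, adjusted p = 2.89e-06) above SCI+Saline, 1.70 (SE 0.14, adjusted p = 1.31e-07) above Sham+CDTX and 1.59 (SE 0.14, adjusted p = 5.47e-08) above Sham+Saline. CDTX after sham surgery gave -0.11 (SE 0.13, adjusted p = 0.498), not called, and the interaction was 1.32 (SE 0.19, adjusted p = 8.46e-05). SCI in saline muscle gave 0.38 (SE 0.13, adjusted p = 0.0308), a call lost on omission of array 3 or array 4 of either group (0.32 to 0.45 over all omissions).

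Cxcl13, the CXCR5 ligand of B cell follicles, read 6.51, 6.72 and 6.89 in SCI+CDTX, 4.50, 4.97, 4.86 and 5.06 in Sham+CDTX, 5.83, 5.13, 5.07 and 4.52 in SCI+Saline and 4.33, 4.85, 4.89 and 4.34 in Sham+Saline. All SCI+CDTX arrays were again above all others. SCI+CDTX was 1.57 (SE 0.24, adjusted p = 4.92e-05) above SCI+Saline, 1.86 (SE 0.24, adjusted p = 1.6e-05) above Sham+CDTX and 2.10 (SE 0.24, adjusted p = 1.07e-06) above Sham+Saline, with an interaction of 1.32 (SE 0.33, adjusted p = 0.00643). Ccl21a, the second CCR7 ligand, read 8.28, 8.18 and 8.05 in SCI+CDTX, 6.65, 7.21, 6.43 and 7.01 in Sham+CDTX, 7.38, 8.05, 7.04 and 7.07 in SCI+Saline and 6.58, 7.43, 6.77 and 6.79 in Sham+Saline. It was 0.78 (SE 0.24, adjusted p = 0.014) above SCI+Saline, 1.35 (SE 0.24, adjusted p = 0.000379) above Sham+CDTX and 1.28 (SE 0.24, adjusted p = 0.00026) above Sham+Saline, and the lowest SCI+CDTX array and SCI+Saline 2 were both at 8.05. Ccl21c, a near-identical copy whose probe may read the same transcripts, was 1.11 (SE 0.24, adjusted p = 0.00182) above Sham+CDTX and was not called against SCI+Saline (0.49). Which Ccl21 copy is measured is uncertain.

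Lymphocyte and lymph node markers moved with Ccl19, Ccl21a and Cxcl13. All 10 kept markers were higher in SCI+CDTX than in SCI+Saline, where 22.2% of all genes were. Of the markers, 9 were higher in SCI+CDTX than in Sham+CDTX (16.5% of all genes) and 9 higher than in Sham+Saline (24%). Their mean log2 level was 6.12 to 6.53 in SCI+CDTX, 4.59 to 4.78 in Sham+CDTX, 4.33 to 4.69 in SCI+Saline and 4.29 to 4.91 in Sham+Saline. Glycam1, a ligand made by the high endothelial venules of lymph nodes, was at 10.39 ± 0.18 in SCI+CDTX (SD, n = 3), and it was detected on 1 of the 4 SCI+Saline arrays and on no sham array. Fcmr, a receptor on B cells, was at 7.29 ± 0.21 (SD, n = 3) in SCI+CDTX and at 4.20 to 4.38 in Sham+CDTX, and Cd3e of T cells was at 4.98 to 5.72 in SCI+CDTX and was not detected in SCI+Saline. Cxcr5, the receptor of CXCL13, was detected on 3 of the 15 arrays with its brightest probe and called in no comparison. The part of lymph node tissue in the muscle samples in these results was not tested.

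**Figure D3:**
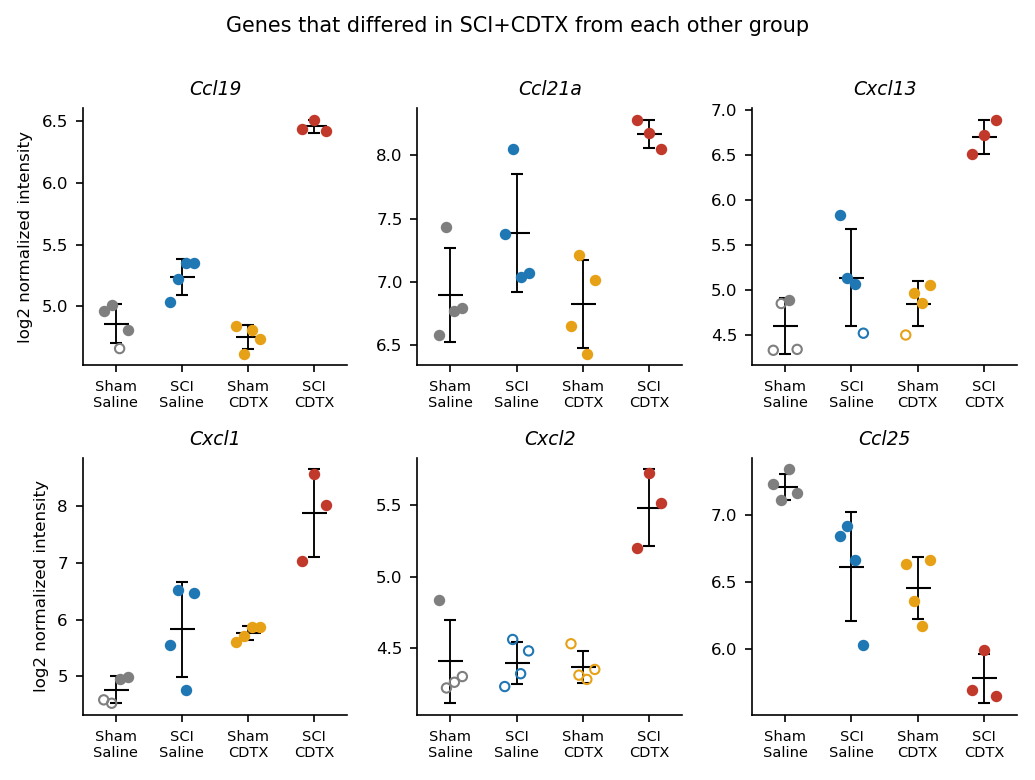
Log2 normalized intensity on each array (points) of the genes called between SCI+CDTX and each of the other 3 groups in 1 direction, with group mean and SD (bars); open points are arrays without detection and each panel has its own axis. Ccl19, Ccl21a, Cxcl13, Cxcl1 and Cxcl2 are highest and Ccl25 lowest in SCI+CDTX; Ccl2, the sixth gene called higher, is not shown here.

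In all, 6 of the 32 genes were called higher in SCI+CDTX than in each other group (Ccl2, Ccl19, Ccl21a, Cxcl1, Cxcl2 and Cxcl13), where 5.4% of all genes were. The 1 gene called lower than in each other group was Ccl25, a thymus and gut chemokine that acts on CCR9, where 5.84% of all genes were. Ccl25 read 5.69, 5.99 and 5.65 in SCI+CDTX, 6.63, 6.36, 6.17 and 6.66 in Sham+CDTX, 6.84, 6.92, 6.66 and 6.03 in SCI+Saline and 7.23, 7.11, 7.34 and 7.16 in Sham+Saline. SCI+CDTX was lowest and Sham+Saline highest, without overlap between these 2 groups. The differences from SCI+Saline, Sham+CDTX and Sham+Saline were -0.84 (SE 0.19, adjusted p = 0.00174), -0.68 (SE 0.19, adjusted p = 0.0119) and -1.43 (SE 0.19, adjusted p = 6.52e-06). The call against Sham+CDTX ended without SCI+CDTX 4 (-0.78 to -0.61 over all omissions), a dimmer probe was called in no comparison, and with median scaling the CDTX difference after sham surgery turned from -0.75 to 0.07.

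The CXCR3 ligands did not move together. Cxcl10, an interferon-induced attractant of T cells, read 5.60, 5.90 and 6.07 in SCI+CDTX, 5.74, 6.04, 5.76 and 5.74 in Sham+CDTX, 6.67, 6.89, 6.23 and 6.54 in SCI+Saline and 4.24, 4.63, 4.19 and 4.22 in Sham+Saline, where it was detected on no array. SCI+Saline was the highest group and overlapped no other. Against Sham+Saline, SCI+Saline was at least 3.49-fold, SCI+CDTX at least 2.11-fold and Sham+CDTX at least 2.05-fold higher (adjusted p = 1.04e-08, 9.33e-07 and 4.82e-07). After SCI, the CDTX difference was -0.72 (SE 0.17, adjusted p = 0.00238), and it was -0.35 (adjusted p = 0.0907) with median scaling. SCI+CDTX differed from Sham+CDTX by 0.04 (SE 0.17, adjusted p = 0.904). The interaction was -2.22 (SE 0.24, adjusted p = 7.58e-06), and it was the 1 interaction called with the probe difference score (-2.75, adjusted p = 0.00241). Its size is uncertain because it includes Sham+Saline, where the probe was not detected.

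Cxcl9, also induced by interferon, was detected on all 15 arrays and called in none of the 6 contrasts, with 6.30, 6.92 and 6.49 in SCI+CDTX and 6.79, 7.11, 6.33 and 6.94 in Sham+Saline. Cxcl11 was detected on no array, and Cxcr3, their receptor on T cells, was detected on 4 arrays and called in no contrast. Pf4, platelet factor 4, which is stored in platelet granules and also made by macrophages, read 11.11, 11.49 and 11.60 in SCI+CDTX, 12.28, 11.91, 11.95 and 12.01 in Sham+CDTX, 9.96, 10.07, 8.23 and 10.29 in SCI+Saline and 8.37, 8.35, 8.07 and 8.99 in Sham+Saline. Both CDTX groups were above all saline arrays, with Sham+CDTX above SCI+CDTX on every array. CDTX raised Pf4 by 1.76 (SE 0.35, adjusted p = 0.000468) after SCI and 3.60 (SE 0.32, adjusted p = 6.58e-08) after sham surgery, and the interaction was -1.84 (SE 0.47, adjusted p = 0.00816). With the probe difference score the difference after sham surgery was 1.69 (adjusted p = 0.0992) and the interaction -0.26 (adjusted p = 0.92), neither called. In saline muscle it was 1.19 (SE 0.32, adjusted p = 0.00841) higher after SCI. Of the 4 kept platelet and megakaryocyte markers, 0 were called in any of the 6 contrasts, and their mean level was 4.33 to 4.80 on all arrays but Sham+Saline 4 (5.48).

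Cxcr4, the receptor of CXCL12 on leukocytes and progenitors, rose more with CDTX after sham surgery than after SCI. It read 6.66, 7.18 and 6.79 in SCI+CDTX, 8.45, 8.29, 8.32 and 8.19 in Sham+CDTX, 5.48, 6.19, 5.84 and 6.41 in SCI+Saline and 5.35, 4.86, 5.61 and 6.67 in Sham+Saline. Sham+CDTX lay above every other array. CDTX raised it by 2.69 (SE 0.28, adjusted p = 3.01e-07) after sham surgery and by 0.89 (SE 0.30, adjusted p = 0.0212) after SCI, the latter lost without SCI+CDTX 3 or SCI+Saline 1 (0.73 to 1.04 over all omissions) and with the probe difference score (0.70, adjusted p = 0.0872). SCI+CDTX differed from Sham+CDTX by -1.44 (SE 0.30, adjusted p = 0.00128), and the interaction was -1.80 (SE 0.41, adjusted p = 0.00355). With the score these were -0.39 (adjusted p = 0.795) and -0.63 (adjusted p = 0.727), and CDTX after sham surgery gave 1.33 (adjusted p = 0.171).

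Cx3cr1, the fractalkine receptor of patrolling monocytes and resident macrophages, was also highest in Sham+CDTX. It read 6.25, 6.04, 7.05 and 6.02 in Sham+CDTX, 4.80, 4.53 and 4.43 in SCI+CDTX, 4.31, 4.36, 4.68 and 4.51 in SCI+Saline and 4.21, 4.29, 4.37 and 4.25 in Sham+Saline. No saline array detected the probe, and 2 of the 3 SCI+CDTX arrays did. Sham+CDTX was at least 2.95-fold above Sham+Saline (adjusted p = 8.4e-08) and SCI+CDTX differed from Sham+CDTX by -1.75 (SE 0.20, adjusted p = 5.12e-06). The interaction was -1.94 (SE 0.28, adjusted p = 9.02e-05). With the score the last 2 were -1.24 (adjusted p = 0.0732) and -1.37 (adjusted p = 0.219). Its ligand Cx3cl1 read 4.89, 4.83, 5.03 and 5.04 in Sham+CDTX, the lowest group, and 5.57, 5.57, 5.43 and 5.75 in Sham+Saline, a difference of -0.63 (SE 0.21, adjusted p = 0.0167) that was not called with the score or with median scaling. SCI+CDTX, at 5.79, 5.72 and 5.56, was 0.74 (SE 0.22, adjusted p = 0.0167) above Sham+CDTX, a call that ended without SCI+CDTX 1 or 3. SCI+Saline had the highest Cx3cl1 mean, 6.06, with arrays from 5.24 to 6.58. It was called against neither SCI+CDTX nor Sham+Saline (adjusted p = 0.2 and 0.0904).

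**Figure D4:**
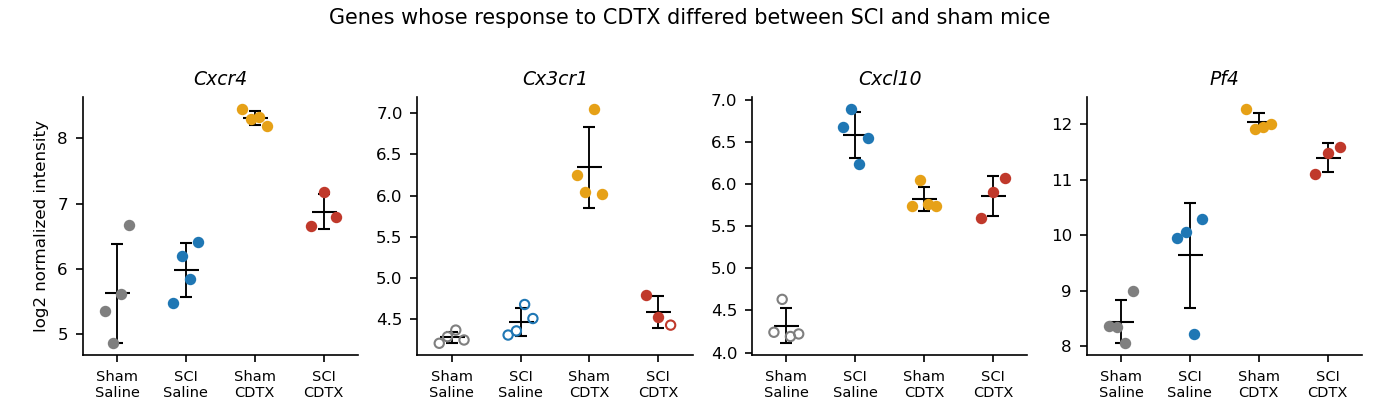
Log2 normalized intensity on each array (points) of 4 genes with a called interaction, in the 4 groups with mean and SD (bars); open points are arrays without detection and each panel has its own axis. Cxcr4, Cx3cr1 and Pf4 are highest in Sham+CDTX, and Cxcl10 is highest in SCI+Saline, at 6.23 to 6.89.

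Over the whole set, 9 genes had a called interaction, 4 above 0 and 5 below, where 25.6% of all genes did (13.9% above and 11.7% below). Those above 0 were Ccl19, Cxcl2, Cxcl12 and Cxcl13, and those below were Ccl7, Cxcl10, Cxcr4, Cx3cr1 and Pf4. Since each CDTX difference is taken within a slide, a shift of 1 slide that adds the same log2 amount to all arrays of it cancels in the interaction. Without SCI+Saline 3 the count below 0 was 10 rather than 5.

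Cxcl12, the CXCR4 ligand of stromal and endothelial cells, had 3 kept probes that gave different accounts. The brightest read 10.08, 10.48 and 10.29 in SCI+CDTX, 9.88, 9.38, 9.75 and 9.98 in Sham+CDTX, 8.79, 8.16, 9.31 and 10.08 in SCI+Saline and 10.92, 10.59, 10.71 and 10.68 in Sham+Saline. By that probe Sham+Saline was the highest group, with SCI+Saline -1.64 (SE 0.27, adjusted p = 0.00017) and Sham+CDTX -0.98 (SE 0.27, adjusted p = 0.00587) against it, and CDTX raised Cxcl12 by 1.20 (SE 0.29, adjusted p = 0.00283) after SCI. A second probe read 7.56, 8.39 and 7.85 in SCI+CDTX against 6.59, 6.58, 6.0 and 6.24 in Sham+Saline, so that SCI+CDTX was higher by 1.58 (SE 0.20, adjusted p = 3.29e-06). Against Sham+CDTX the other probes gave 1.57 (SE 0.20, adjusted p = 1.36e-05) and 1.14 (SE 0.17, adjusted p = 5.74e-05), where the brightest gave 0.54 (SE 0.29, adjusted p = 0.192). On CDTX after SCI and on the interaction the 3 probes shared their call: they gave 1.20, 1.68 and 1.10 for the first, and 2.18, 1.68 and 1.59 for the second. The array has 2 further Cxcl12 probes that were not kept, and which transcripts each probe reads was not analysed here. Of 8 endothelial markers, 5 had a called interaction above 0, where 13.9% of all genes did. The mean of the 8 markers was 7.67 to 7.95 in SCI+CDTX, 7.12 to 7.25 in Sham+CDTX, 7.12 to 7.53 in SCI+Saline and 7.92 to 8.18 in Sham+Saline. Their part was not tested.

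Cxcl14, a chemokine of epithelial and stromal tissue, also depended on the probe. The brightest read 8.78, 9.05 and 8.93 in SCI+CDTX, 9.18, 9.45, 8.95 and 9.0 in Sham+CDTX, 8.37, 8.57, 8.10 and 8.65 in SCI+Saline and 8.15, 8.28, 7.62 and 7.97 in Sham+Saline, and the other read 8.71, 9.20 and 9.27, 7.47, 7.28, 6.88 and 6.96, 8.28, 8.29, 7.44 and 8.13, and 6.36, 6.74, 6.14 and 6.20 in the same groups. SCI+CDTX was the highest group by the second probe and Sham+CDTX by the first. SCI+CDTX against Sham+CDTX was -0.23 (SE 0.18, adjusted p = 0.397) by the first and 1.91 (SE 0.22, adjusted p = 5.12e-06) by the second. SCI in saline muscle gave 0.41 (SE 0.17, adjusted p = 0.0703) and 1.68 (SE 0.20, adjusted p = 6.48e-06). Both probes were called higher with CDTX after sham surgery (1.14 and 0.79) and after SCI (0.50 and 1.02). With the probe difference score the brightest probe gave -0.03 (adjusted p = 0.97) and 0.39 (adjusted p = 0.147), and its call after SCI also ended without SCI+CDTX 3 or 4 or SCI+Saline 1 or 3 (0.39 to 0.57 over all omissions). Of the 8 genes with more than 1 kept probe, probes differed in their call for 1 to 4 genes in each of the 5 comparisons and for 0 in the interaction.

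**Figure D5:**
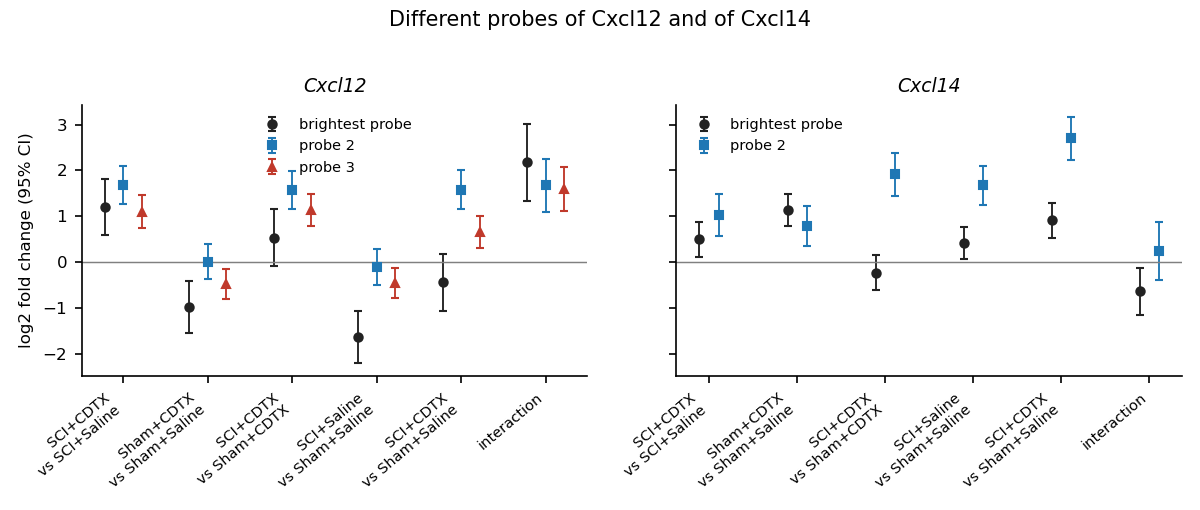
Log2 fold change (points) with 95% confidence interval (bars) of each kept probe of Cxcl12 (3 probes) and Cxcl14 (2 probes) in 5 comparisons and the interaction. For SCI+CDTX against Sham+CDTX the brightest Cxcl12 and Cxcl14 probes lie at 0.54 and -0.23, and the others between 1.14 and 1.91.

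The remaining kept ligands include 2 eotaxins, which attract eosinophils, and chemokines of skin and other tissues. Cxcl16, a membrane-bound ligand of CXCR6, read 6.88, 7.27 and 6.65 in SCI+CDTX, 7.54, 7.38, 7.25 and 7.06 in Sham+CDTX, 5.57, 5.39, 5.27 and 6.05 in SCI+Saline and 5.43, 5.68, 4.94 and 5.41 in Sham+Saline, with the CDTX groups above all saline arrays. CDTX raised it by 1.36 (SE 0.21, adjusted p = 4.91e-05) after SCI and 1.95 (SE 0.19, adjusted p = 2.08e-07) after sham surgery. Ccl27a, a skin chemokine that acts on CCR10, had the lowest differences with CDTX among the kept genes, -1.03 (SE 0.18, adjusted p = 0.000146) after SCI and -1.43 (SE 0.16, adjusted p = 1.05e-06) after sham surgery, with a second probe at -0.98 and -1.17. The array lists its probes under the older symbol Ccl27. With the probe difference score the Ccl27a difference after sham surgery was -0.99 (adjusted p = 0.0987). Ccl24, an eotaxin, rose by 0.88 (SE 0.24, adjusted p = 0.00559) after SCI and 0.63 (SE 0.22, adjusted p = 0.0223) after sham surgery. The latter call ended without Sham+CDTX 1, Sham+Saline 1 or Sham+Saline 3 (0.56 to 0.74 over all omissions) and with the score (1.44, adjusted p = 0.0735). Ccl11, the other kept eotaxin, rose by 0.66 (SE 0.16, adjusted p = 0.00212) after sham surgery by its brightest probe, while its other probe gave -0.50 (SE 0.22, adjusted p = 0.0685), and the call ended with the score (0.12, adjusted p = 0.87). The small calls of Ccr3 (0.39) and Ccr6 (-0.46) after sham surgery rest on probes detected on 4 and 5 arrays, and both ended with the score.

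Genes of the pathway outside the set were counted from lists. Of 24 kept genes that carry the signal from chemokine receptors (G protein subunits, phospholipases, PI3 kinase, Rac activators, arrestins), 22 were higher and 0 lower with CDTX after SCI, and 17 and 0 after sham surgery, where 22.2% and 23.9% of all genes were called higher. The 9 kept monocyte and macrophage markers were all higher in both of these comparisons too, and their part in these counts was not tested. Vav1, an exchange factor for Rac, was 2.96 higher after SCI and 2.22 after sham surgery on the log2 scale, and Rgs1, which ends G protein signalling, was 2.33 and 1.85 higher. Gnai2, the inhibitory G alpha subunit, was 1.83 and 3.11 higher. Between SCI+CDTX and Sham+CDTX, 9 signalling genes were higher and 5 lower, where 16.5% and 15.9% of all genes were, among them Elmo1 (1.21 higher) and Was (-1.73). Of 14 kept genes of NF-kappaB, its inducers and its targets, 11 were higher and 0 lower with CDTX after SCI, 10 and 0 after sham surgery, and 10 and 0 in SCI+CDTX against Sham+CDTX, beside the same shares of all genes. Il1b, which encodes interleukin 1 beta, was 3.46 higher with CDTX after SCI, 0.80 higher after sham surgery and 2.96 higher in SCI+CDTX than in Sham+CDTX, and Rela, an NF-kappaB subunit, was 1.01 higher in the last. Of 5 kept atypical and related receptors, 2 were higher and 0 lower with CDTX after SCI (22.2% of all genes in each direction). After sham surgery 0 were higher and 3 lower (23.9% and 26.8% of all genes). In SCI+CDTX 2 were higher and 0 lower than in Sham+CDTX (16.5% and 15.9%), and 1 and 2 than in Sham+Saline (24% each). In SCI+Saline 0 were higher and 3 lower than in Sham+Saline (14.7% and 15.9%). Fpr2, a formyl peptide receptor of phagocytes, was 2.66 higher with CDTX after SCI. Ackr1, which carries chemokines across venules, was 0.73 higher in SCI+CDTX than in Sham+CDTX.

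The mean log2 level of 10 muscle fibre markers was 13.36 to 13.78 on all 15 arrays of this muscle tissue. In SCI+CDTX, 0 of these markers were called higher and 3 lower than in Sham+Saline, where 24% of all genes were called in each direction. In Sham+CDTX, 2 were higher and 1 lower than in Sham+Saline, where 23.9% and 26.8% of all genes were. In the authors' deposited table, in which groups are means of background-subtracted intensity, Ccl2 was at 662.4 in SCI+CDTX, 255.3 in Sham+CDTX, 83.4 in SCI+Saline and -0.5 in Sham+Saline. By the same deposited table Cxcl13 was at 108.1, 15.7, 15.2 and 5.8, and Cxcl10 at 52.9, 50.6, 63.9 and -1.0 in that order of groups. The deposited difference p-value of Cxcl10 between SCI+CDTX and SCI+Saline was 0.78, where limma called a fall.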

How the data were processed

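Muscle RNA of 4 groups was read on 16 arrays. The deposited intensity table holds the mean bead intensity per probe and array without normalization or background subtraction, per the file headers, beside a detection p-value that the authors deposited for each probe and array. GenomeStudio 2011.1 is named in the submitters' processing notes. The authors' deposited final table of normalized intensity gives group means and a difference p-value.

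Intensities of 15 arrays were background-corrected and quantile normalized with neqc (offset 16, log2) with limma 3.58.1 (R 4.3.3, data.table version 1.17.8). The offset understates fold changes of dim probes. A probe was kept if 3 or more arrays had a detection p below 0.05 (14763 probes, 10851 genes), and a gene is its brightest kept probe. The 4 group means were fitted with lmFit and eBayes, with Benjamini-Hochberg adjustment per contrast, and all adjusted p-values are limma's unless named otherwise. Where no array of a group detected a probe, the fold is a bound: the bright group's mean against the dim group's, with each dim array raised to its lowest detected signal where the probe lay under it. Such a bound covers the missing detection only and leaves out the spread between arrays. Interactions are given as fitted, also where a group had no array with detection (Cxcl2, Cx3cr1 and Cxcl10), so the sizes of those are uncertain. Intervals are at 95%.

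Symbols were updated through Entrez identifiers and RefSeq accessions (GRCm38.p6), which renamed 5 member probes (Cxcl4 to Pf4, Ccl27 to Ccl27a, Cxcr7 to Ackr3, Ccl21b to Ccl21a). The build behind the array annotation is not given in the sources used here, so no probe positions are printed. Ccl8, Ccl12 and Cxcl5 were not analysed here. The values of 1 kept member gene are not reported here, and counts and medians over the members include it. The script was tested on simulated data. Replicate numbers do not pair arrays across groups: over 21 same-numbered pairs the correlation of deviations from the group means was -0.271 to 0.377, above 0.1 in 3.

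Genes given with all array values are, in each of the 6 contrasts, up to 6 called genes with the largest absolute difference, and 14 chemokine and receptor genes listed by name where kept. Cxcl2, Ccl25, Cxcl14, Cxcl16 and Cx3cl1 were added after their values were seen. Cx3cl1 in SCI+Saline is given by its mean and range only. Members, marker lists and tests were chosen with earlier results of these data known. The number of arrays limits the precision.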

Additional observations from a re-analysis of the deposited data

Results flagged for a closer look

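Among 93 combinations of a reported kept gene and a group of 4 arrays, 6 had 1 array set apart from the other 3, where chance alone gives about 1 in 20, or 4.7. In Sham+Saline, replicate 1 was the highest for Ccl3 (4.73, not detected) and Cxcl2 (4.84, detected), and replicate 2 was the highest for Cxcl10 (4.63, not detected). In SCI+Saline, replicate 3 was the lowest for Ccl5 (4.43, not detected) and Pf4 (8.23, detected). In Sham+CDTX, replicate 2 was the highest for Cxcl10 (6.04). SCI+CDTX, with 3 arrays, was not examined in this way.

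The effect of CDTX after SCI minus its effect after sham surgery passed limma's adjusted threshold for 9 of the 32 kept genes. Of all genes tested, 25.6% passed it. It was 1.32 for Ccl19, 1.32 for Cxcl13, 1.13 for Cxcl2 and 2.18 for Cxcl12. It was -2.10 for Ccl7, -1.94 for Cx3cr1, -2.22 for Cxcl10, -1.80 for Cxcr4 and -1.84 for Pf4. With all 16 arrays and the probe difference score as a covariate, only Cxcl10 remained called (-2.75) among these 9.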

How the results depend on the processing

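The alternatives changed 1 choice at a time, except the probe difference score, which also takes in the left-out array. Of members called higher in SCI+Saline than in Sham+Saline, 8 became 4 with all 16 arrays, 4 without background correction, 5 without a detection filter, 5 with a trended and robust eBayes, 5 with only the groups compared, 13 with each slide normalized separately and 14 with median scaling, and the 2 lower became 1 in the last 3. With all 16 arrays and the probe difference score, 9 were higher and 1 lower in Sham+CDTX than in Sham+Saline, 2 higher and 0 lower in SCI+CDTX than in Sham+CDTX, 0 interactions were above 0 and 1 below, and 2 were higher and 0 lower in SCI+CDTX than in each other group. Median scaling gave 2 lower in Sham+CDTX than in Sham+Saline and 9 interactions below 0, and it moved the median of all probes by 0.32 there and by -0.24 in the interaction. With only the groups compared, 13 were higher and 5 lower in SCI+CDTX than in Sham+CDTX. The authors' deposited final table gave 1 lower, not 3, in SCI+CDTX than in SCI+Saline. The causes were not tested.

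Signs turned for 7 gene results that were called in the main fit or in the alternative. Sign changes of results called in neither were not counted. In Sham+CDTX against Sham+Saline, Cxcl12 became 0.37 and Cxcl14 -0.03 with the score, and Ccl21a became 0.75 and Ccl25 0.07 with median scaling. In SCI+CDTX against Sham+Saline, Cxcl9 became 0.56 with median scaling and Cxcl12 0.60 as the mean of its probes, as did Cxcl14 (0.84) in SCI+CDTX against Sham+CDTX.

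Leaving out each array gave 17 to 19 higher and 3 to 4 lower in SCI+CDTX against SCI+Saline, 17 to 19 and 4 to 5 in Sham+CDTX against Sham+Saline, 6 to 9 and 2 to 4 in SCI+CDTX against Sham+CDTX, 5 to 11 and 1 to 3 in SCI+Saline against Sham+Saline, 19 to 21 and 2 to 2 in SCI+CDTX against Sham+Saline, 4 to 6 and 4 to 10 interactions above and below 0, and 5 to 7 and 0 to 1 against each other group. The low counts in saline muscle came without SCI+Saline 4 or Sham+Saline 3.

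The replicate number as a block, which does not pair the arrays, gave 20 higher in SCI+CDTX than in SCI+Saline and 6 interactions above 0. With the block, other counts of members called moved by at most 1. By detection p under 0.01, 28 genes were kept, and 41 were detected on at least 1 array. Dim probes such as Cxcl2 and Cx3cr1 lie near background, which limits their folds to bounds.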
